A study of Homo sapiens with 6 samples.

Results

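Among the protein-coding genes that were all but silent in the vehicle libraries, 111 carried a substantial number of reads in the panobinostat libraries. These genes were chosen by their raw counts: 3 counts or fewer over the 3 vehicle libraries, and 60 counts or more over the 3 panobinostat libraries. They made up 13.4% of the 829 coding genes at 3 vehicle counts or fewer and 0.762% of the 14559 coding genes with a row in the count table, which held 22718 rows in all. The choice used the counts of all 6 libraries, so the difference between the arms is the criterion itself and is given here as a description, with no test.

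The samples were human cells with the label HT1197, the name of an established bladder carcinoma line. The panobinostat cells had spent 48 hours in the drug, at a dose of 2 times the concentration that inhibits the line half-maximally, and the vehicle cells had spent the same time in 1% DMSO. Each arm held 3 libraries with the letters A to C, and total RNA was sequenced. The labels speak of dishes seeded in triplicate and tie no library to a dish, so the spread between libraries may be technical. Panobinostat libraries held 13417898 to 18186087 counts and vehicle libraries held 14287080 to 18095984.

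The expression pattern went against the labelled tissue. Of 24 urothelial markers 14 had a row, and with vehicle only GATA3, TBX3 and XBP1 reached 10 FPKM (a level per gene length and library total, computed by the authors). The urothelial genes UPK1B, TP63 and FOXA1 had 0 vehicle counts, and the keratin gene KRT8 had 6 panobinostat and 4 vehicle counts. Of 22 markers of adrenergic neuroblasts all 22 had a row and 18 reached 10 FPKM with vehicle. CHGA, which encodes the granule protein chromogranin A, averaged 467 ± 18.7 FPKM with panobinostat and 322 ± 7.31 FPKM with vehicle (SD, n = 3 each). The samples are therefore called libraries labelled HT1197, and a gene described as foreign to bladder may not be foreign to these cells. Since RNA came from bulk cultures, a few cells with many transcripts and many cells with few cannot be told apart.

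Histone deacetylases remove acetyl groups from histone tails, and chromatin without those groups is on the whole less readily transcribed. Panobinostat is a hydroxamate drug that blocks most of the zinc-dependent members of that enzyme family. Inhibitors of this kind raise and lower many genes, and genes that a cell type does not normally use are known to be among those that respond. CpG-rich promoters are typical of broadly used genes, and promoters with a TATA box and few CpG are more typical of tissue-restricted ones.

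The start sites of 4 of the genes are shown because they span this range, from a stress gene and a signalling receptor to a liver enzyme and a placental hormone. Each window runs from 250 bases before to 50 bases after the RefSeq start on GRCh38.p14, 5′ to 3′ on the gene's own strand. Capitals mark GC boxes (GGGCGG on either strand), the TATA box (TATAAA on the gene's strand) and the cAMP response element, or CRE (TGACGTCA, the same on either strand). None of these overlapped another.
GADD45B, chr19:2475877-2476176, plus strand: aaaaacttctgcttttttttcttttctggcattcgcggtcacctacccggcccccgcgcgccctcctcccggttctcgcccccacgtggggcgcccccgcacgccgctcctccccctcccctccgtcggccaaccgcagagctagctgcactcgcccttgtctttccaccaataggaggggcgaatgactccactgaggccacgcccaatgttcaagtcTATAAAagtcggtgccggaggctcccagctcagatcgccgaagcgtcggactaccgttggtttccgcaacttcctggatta
NOTCH2, chr1:120069613-120069912, minus strand: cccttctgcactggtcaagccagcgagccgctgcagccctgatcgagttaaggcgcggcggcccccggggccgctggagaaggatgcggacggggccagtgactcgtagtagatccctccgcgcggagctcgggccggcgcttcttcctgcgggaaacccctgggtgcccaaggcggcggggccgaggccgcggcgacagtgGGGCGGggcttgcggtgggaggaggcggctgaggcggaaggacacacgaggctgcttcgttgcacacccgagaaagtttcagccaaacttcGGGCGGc
TDO2, chr4:155903446-155903745, plus strand: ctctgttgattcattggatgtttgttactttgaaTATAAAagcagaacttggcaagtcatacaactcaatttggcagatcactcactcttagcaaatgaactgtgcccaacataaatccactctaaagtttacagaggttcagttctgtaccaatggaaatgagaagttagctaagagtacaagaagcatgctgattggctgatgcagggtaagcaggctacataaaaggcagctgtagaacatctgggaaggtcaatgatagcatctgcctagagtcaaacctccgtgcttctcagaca
CGA, chr6:87095057-87095356, minus strand: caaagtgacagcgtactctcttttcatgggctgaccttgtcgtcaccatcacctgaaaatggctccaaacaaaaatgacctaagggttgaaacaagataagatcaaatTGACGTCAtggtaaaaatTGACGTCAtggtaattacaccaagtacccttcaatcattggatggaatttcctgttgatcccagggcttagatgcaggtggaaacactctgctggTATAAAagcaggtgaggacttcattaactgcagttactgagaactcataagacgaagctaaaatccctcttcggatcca

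The GADD45B window held 27 CpG, a ratio of observed to expected CpG of 1.01, and 1 TATA box. NOTCH2 had 33 CpG in its window, a ratio of 0.904, with 2 GC boxes and no TATA box. The TDO2 window held 1 CpG and 1 TATA box, which lay far upstream of the RefSeq start. In the CGA window there were 6 CpG, 1 TATA box and the 2 copies of the CRE for which this promoter is known. Of 27305 RefSeq windows of this length, 44.6% held a GC box, 7.71% a TATA box and 1.98% a CRE by the same search. Only 82 of the 111 genes (73.9%) matched a window, so a comparison of promoter composition over the set is void and none is given.

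How silent the genes were with vehicle is set by the rule, but the split within it is not: 30 genes had 0 vehicle counts, 25 had 1, 31 had 2 and 25 had 3. The 111 genes together held 15683 panobinostat counts and 162 vehicle counts. Scaled to library totals (CPM), this came to 360, 338 and 296 CPM in panobinostat libraries A, B and C, against 2.17, 3.86 and 3.43 in vehicle libraries A, B and C. Every gene had at least 13 counts in each panobinostat library. With panobinostat library A, B or C left out and the limit scaled to the rest, 105, 100 and 104 of the 111 still met the limits.

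Vehicle silence was far more common than its mirror image. Only 122 coding genes stood at 3 panobinostat counts or fewer, against 829 at 3 vehicle counts or fewer. Of those 122, 21 had 10 vehicle counts or more. Of the 829 genes silent with vehicle, 608 had 10 panobinostat counts or more. With both limits swapped, 1 gene met them: ASPDH, named for its likeness to aspartate dehydrogenases, had 1, 0 and 1 counts in panobinostat libraries A, B and C, against 18, 22 and 23 in vehicle libraries. How rows were selected for the table is not stated in the labels or headers, and genes low in both arms may have no row, so these shares hold for the listed rows.

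**Figure D1:**
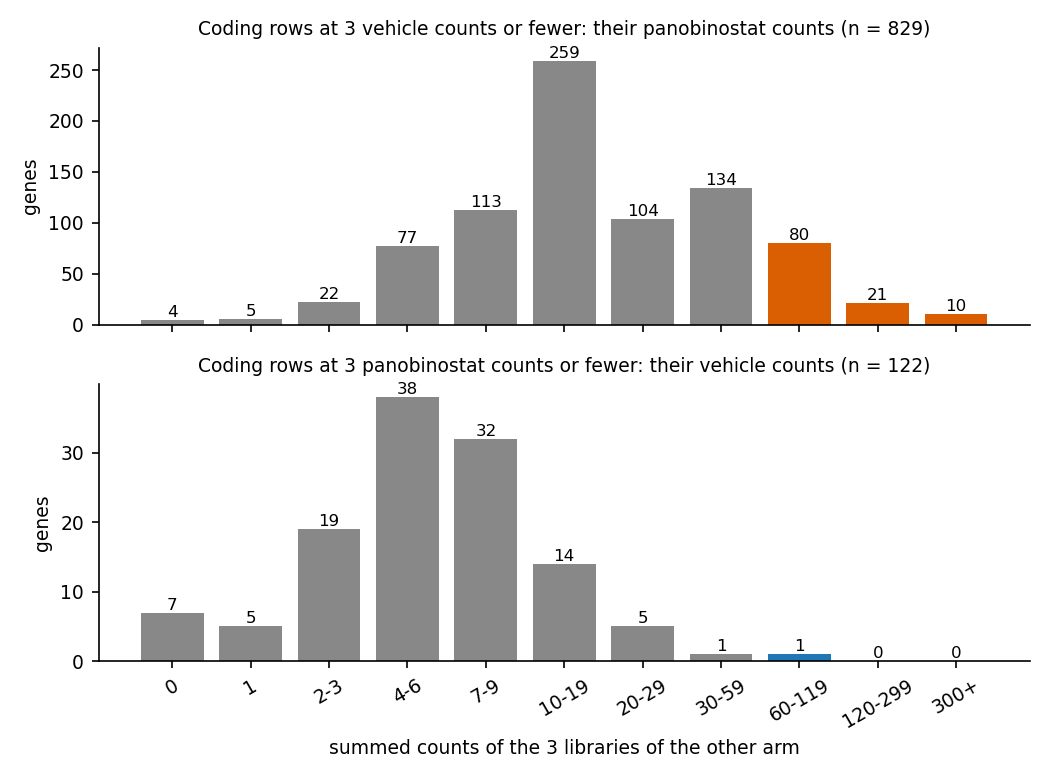
Histograms of coding genes silent in an arm (3 counts or fewer over its 3 libraries) by their summed counts in the other arm. The upper panel holds the 829 genes silent with vehicle, of which 111 reached 60 panobinostat counts (orange), and the lower panel holds the 122 genes silent with panobinostat, of which 1 reached 60 vehicle counts (blue); the vertical scales differ.

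The limits cut through a continuous range. Just inside the limit of 60 panobinostat counts lay AKAP14, ATP1B2, HRH1 and IGF2BP2, all at 60. Just outside lay ELFN2, GAL3ST1, OLFML2A and SYT13, all at 59. At the vehicle limit, the genes with the most panobinostat counts among those with 3 vehicle counts were GBP5, ACSBG1, GABARAPL1 and RRAS. The corresponding genes with 4 vehicle counts, and so left out, were PCP4L1 with 478 panobinostat counts, NTS with 280, YAP1 with 272 and PAK3 with 240.

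Most of the genes reached only a low level. Their mean panobinostat FPKM had a median of 0.497, with quartiles of 0.309 and 0.873, and ran from 0.0758 for PTPN14 to 4.70 for CAPN6. The median over all coding genes in the panobinostat libraries was 4.88 FPKM. Of the 111 genes, 24 reached 1 FPKM, 9 reached 2 FPKM and 3 reached 4 FPKM. Of all coding genes, 49.1% had a mean panobinostat FPKM below that of CAPN6, and 18.2% lay below the median of the set. Because the rule counts reads and not reads per length, long genes could enter at a lower FPKM: the lowest, PTPN14 and RYR1, had 66 and 61 panobinostat counts.

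Panobinostat libraries spread by a median of 20.9% around a gene's mean (coefficient of variation of TMM-scaled CPM), with quartiles of 11.3% and 28.7%. The steadiest was ZNF215, a zinc finger gene, at 1.28%, with 50, 60 and 65 counts in panobinostat libraries A, B and C. PTGS1, the cyclooxygenase that makes prostaglandins in resting tissue, spread most at 53.2%, with 39, 35 and 15 counts. For 21 genes the 3 libraries differed by a chi-square above 5.99, its 95% point on 2 degrees of freedom. Counting error alone would put some genes above that point. It also enters every spread at counts this low, so the order of genes by spread is uncertain. Library A gave the highest scaled value for 58 genes, library B for 41 and library C for 12.

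**Figure D2:**
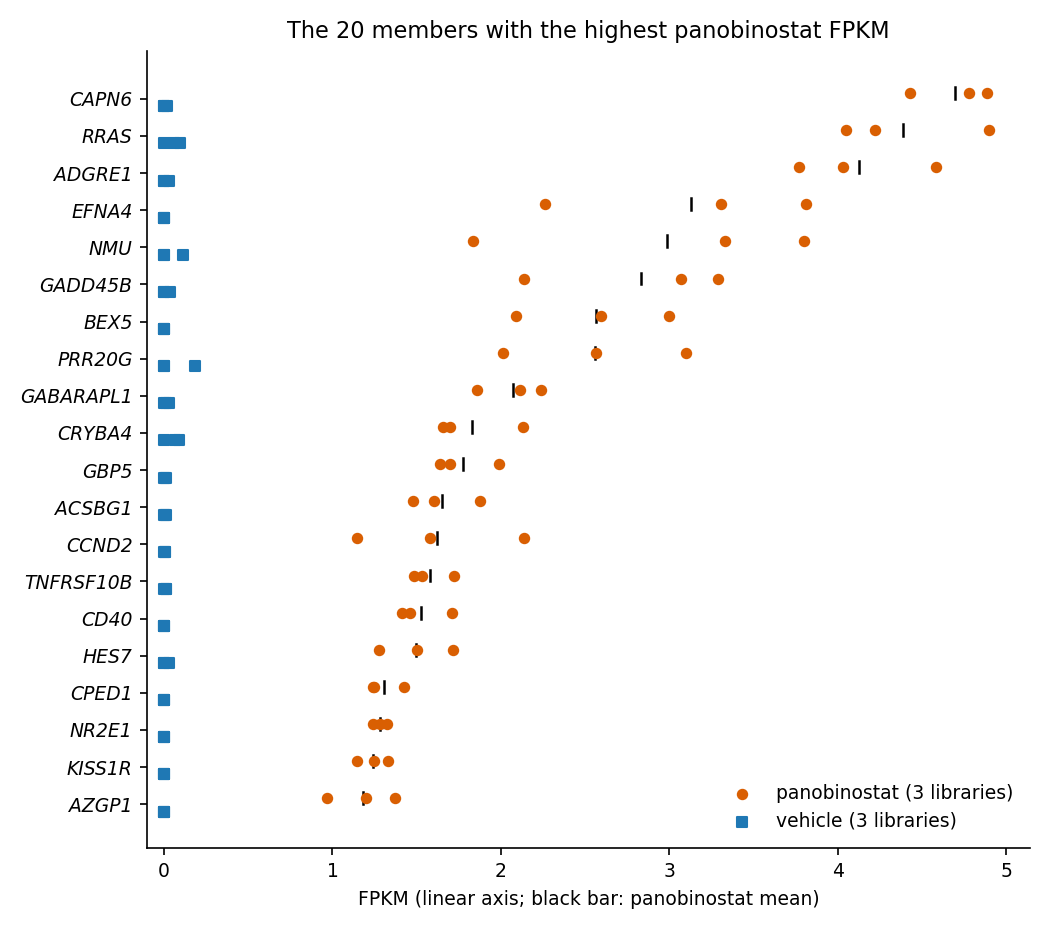
FPKM in each library for the 20 genes with the highest mean panobinostat FPKM, with panobinostat libraries as orange circles above vehicle libraries as blue squares and a black bar at the panobinostat mean. Panobinostat means run from 4.70 for CAPN6 to 1.18 for AZGP1, and vehicle libraries lie at or near 0, as the rule requires.

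CAPN6 (ENSG00000077274, chromosome X, 111245103 to 111270523 on GRCh38), a calpain family member that lacks the protease activity of its relatives, had the highest level. Its counts were 234, 256 and 310 in panobinostat libraries A, B and C, against 0, 1 and 0 in vehicle libraries. Over the arms this was 779-fold, and the exact 95% interval ran from 139 to 30796 and covers counting error only. All 3 panobinostat libraries were far above every vehicle library, and they differed little among themselves, at 4.70 ± 0.240 FPKM (SD, n = 3).

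RRAS (ENSG00000126458, chromosome 19, 49635292 to 49640201), a small GTPase that acts on integrin adhesion, had 63, 92 and 89 counts in panobinostat libraries A, B and C, against 1, 0 and 2 in vehicle libraries. At 4.39 ± 0.448 FPKM it came next to CAPN6, and these 2 genes did not differ beyond their spread. ADGRE1 (ENSG00000174837, chromosome 19, 6887566 to 6940459), an adhesion receptor whose mouse counterpart is the macrophage antigen F4/80, had 228, 242 and 254 counts in panobinostat libraries, against 0, 0 and 2 in vehicle libraries. It stood at 4.13 ± 0.417 FPKM.

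EFNA4, a membrane-bound ephrin ligand, had 56, 78 and 52 counts in panobinostat libraries, against 0 in each vehicle library, and lay at least 60.4-fold higher if the vehicle arm is given a floor of 3 counts. NMU, which encodes the neuropeptide neuromedin U, varied more, with 24, 60 and 59 counts in panobinostat libraries A, B and C, against 0, 2 and 0 in vehicle libraries. KISS1R, the kisspeptin receptor that governs puberty through the hypothalamus, had 30, 34 and 35 counts with panobinostat, against 0 in each vehicle library. Levels of EFNA4 and NMU, at 3.13 ± 0.789 and 2.99 ± 1.02 FPKM, overlapped between libraries, and KISS1R was lower at 1.24 ± 0.0928 FPKM. BEX5, a gene of the brain-expressed X-linked family, and PRR20G, of a multigene family whose reads may be shared, each averaged 2.56 FPKM (SD of 0.456 and 0.544).

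By raw reads instead of level, the top of the set was CAPN6 with 800 panobinostat counts, ADGRE1 with 724, GBP5 with 684, ACSBG1 with 644 and CCND2 with 537. CPED1 (484), GABARAPL1 (402), TNFRSF10B (386), NOTCH2 (333) and TMEM132B (330) followed. CPED1, a gene of poorly known function, had the highest bound among the 30 genes with no vehicle count, at least 157-fold higher. Across the other 29 the bound ran down to 19.5-fold, for PHOSPHO1.

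By function, the set was mixed. Assigned from general knowledge after the members were known, 18 were enzymes of metabolism, 14 were genes of matrix, junctions and cell shape, 13 encoded hormones, ligands and their receptors, and 12 were immune genes. A further 10 were channels, transporters or synaptic genes, 9 belonged to testis, cilium or motor proteins, 8 to transcription and RNA factors, 7 to stress, death and growth control, and 6 to adaptors of GTPases, kinases and receptors. The last 14 were 2 structural genes of lens and muscle and 12 of other or little known function.

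**Figure D3:**
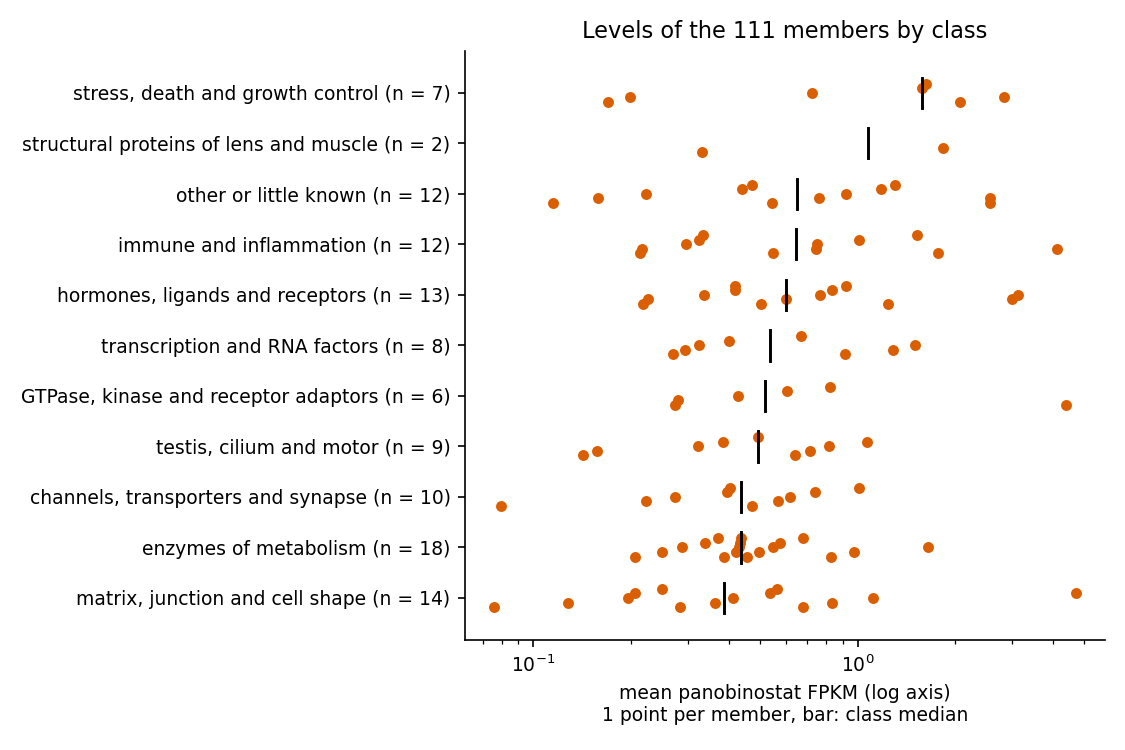
Mean panobinostat FPKM of each of the 111 genes on a log axis, grouped by functional class and ordered by the class median (black bar). Class medians lie between 0.388 FPKM for matrix, junction and cell shape and 1.58 FPKM for stress, death and growth control, and the ranges of all classes overlap.

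Stress, death and growth control had the highest median level, 1.58 FPKM over 7 genes, from 0.170 for SGK1 to 2.83 for GADD45B. GADD45B, a stress sensor that binds kinases of the p38 and JNK pathway, had 88, 114 and 83 counts in panobinostat libraries A, B and C, against 1, 0 and 0 in vehicle libraries. CCND2, a D-type cyclin of the G1 phase, had 205, 183 and 149 counts, against 0, 1 and 1. TNFRSF10B, a death receptor for the ligand TRAIL, had 119, 128 and 139 counts, against 1, 1 and 0. GABARAPL1, a protein of autophagosome membranes, had 116, 148 and 138 counts in panobinostat libraries, against 0, 1 and 2 in vehicle libraries. In all 4 genes the arms lay far apart, and CCND2 spread most between its panobinostat libraries. ZFP36, which destabilises AU-rich mRNAs, and RCAN3, an inhibitor of calcineurin, were lower at 0.721 ± 0.190 and 0.198 ± 0.0611 FPKM.

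Ligands and hormones included both beta subunits of the classical activins, INHBA at 0.219 ± 0.0776 FPKM and INHBB at 0.502 ± 0.0664 FPKM. CGA, the alpha subunit shared by chorionic gonadotropin, LH, FSH and TSH, had 32, 37 and 30 counts in panobinostat libraries, against 0, 0 and 1 in vehicle libraries. Receptors included NOTCH2 (98, 120 and 115 panobinostat counts, and 0 in each vehicle library), the ephrin receptor EPHA3, the sphingosine-1-phosphate receptor S1PR5, the proton-sensing receptor GPR4 and the histamine receptor HRH1. NOTCH2 has near-identical partial copies in the genome, so its count is uncertain.

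Immune genes ran from 0.213 FPKM for TLR6, a receptor for bacterial lipopeptides, to 4.13 FPKM for ADGRE1. GBP5, an interferon-induced GTPase, had 217, 216 and 251 counts in panobinostat libraries, against 0, 1 and 2 in vehicle libraries. CD40, the receptor that helper T cells engage on antigen-presenting cells, had 48, 70 and 67 counts in panobinostat libraries, against 0 in each vehicle library. HLA-DPB1, a class II histocompatibility chain, had 41, 56 and 35 counts, against 0, 1 and 0, and its level is uncertain because reads can be shared between HLA genes. ADGRE5, OSMR, SLFN5, HLA-E, CD99 and NCKAP1L, a regulator of actin in blood cells, were the other named members of the class. Of the 57 rows in a list of blood and immune markers 26 were silent with vehicle. That list had 4 of them in the set, beside 13.4% of all silent coding genes. Its summed level was 77.8 to 81.3 FPKM in panobinostat libraries and 60.1 to 67.2 FPKM in vehicle libraries, with 1 row at 0 in the panobinostat arm and 10 at 0 in the vehicle arm. Most of the vehicle sum came from LYN, CXCR4 and GATA3, the last also a urothelial marker above. They averaged 26.8, 13.3 and 10.6 FPKM with vehicle, and 13.5, 24.4 and 9.15 FPKM with panobinostat. The sum thus does not give the level of the list's other genes. What part other cells had in this was not tested.

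Enzymes formed the largest class. ACSBG1, which activates long-chain fatty acids, had 207, 197 and 240 counts in panobinostat libraries, against 1, 0 and 2 in vehicle libraries. TDO2, which opens the ring of tryptophan in liver, had 56, 78 and 74 counts, against 1, 1 and 0. SI, the sucrase-isomaltase of the intestinal brush border, had 33, 37 and 43 counts, against 0, 0 and 1. Drug and steroid metabolism had the most members of the 33 gene lists, and is named for that. The lists were drawn up with earlier results of these data known, so its share is a description and does not weigh the list. Of its 54 rows 15 were silent with vehicle. Of those 15, beside a share of 13.4% over all silent coding genes, 7 were in the set. These were SULT2B1, AKR1D1, CYP26B1, CES4A, PTGS1, AKR1C1 and AKR1C2, enzymes of sulfation, bile acid synthesis, retinoic acid breakdown, ester cleavage, prostaglandin synthesis and steroid reduction. AKR1C1 and AKR1C2 are close to identical in sequence, and reads between them may be shared. AKR1C1 had 32, 43 and 47 counts in panobinostat libraries, against 0 in each vehicle library.

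Matrix and junction genes, CAPN6 apart, stood at 1.12 FPKM or less. CAVIN1, which coats caveolae, had 69, 79 and 51 counts in panobinostat libraries, against 0, 1 and 1 in vehicle libraries. OCLN, the tight junction protein occludin, had 23, 25 and 13 counts in panobinostat libraries A, B and C, against 0 in each vehicle library. COL14A1, a fibril-associated collagen, reached 0.564 ± 0.137 FPKM.

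Transcription and RNA factors numbered 8. HES7, a repressor of the somite clock, had 32, 52 and 51 counts in panobinostat libraries, against 0, 0 and 1 in vehicle libraries. NR2E1, an orphan nuclear receptor that maintains neural stem cells, had 62, 80 and 87 counts, against 0 in each vehicle library. LHX1 and FOXA3, factors of early kidney and liver, reached 0.401 ± 0.117 and 0.670 ± 0.216 FPKM. Of the list of developmental transcription factors, 122 had a row and 14 were silent with vehicle. LHX1 and FOXA3 were its 2 members, beside a share of 13.4% over all silent coding genes.

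By normal site of expression, again assigned from general knowledge, 43 of the 111 genes were tied to a tissue and 68 were broad or not assigned. The 68 include KISS1R and LHX1, so the split does not measure how many genes are tissue-restricted. Brain and nerve had 9, immune cells 8, liver, gut and kidney 7, testis and reproductive tract 6, barrier epithelia 5, eye and inner ear 4, skeletal muscle 2, and connective tissue and bone 2. The nerve genes included GABRD, a GABA receptor subunit, GRIN3B, an NMDA receptor subunit, and ACHE, acetylcholinesterase. The sensory genes were the lens crystallin CRYBA4, the hair cell channel subunit TMC2, the stereocilium scaffold WHRN and the myosin MYO3B. Skeletal muscle gave MYBPC1 and the calcium release channel RYR1. Brain and nerve held the most, 8.11% of all 111 genes, of which 68 had no assigned tissue. No share over other coding genes is at hand, so these counts do not show whether the tissues are evenly represented.

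Members also sat in gene lists of several kinds, drawn up with earlier results of these data known. Of 33 lists, 18 held a member, 38 genes sat in at least 1 list and 73 sat in none. The list of ion channels, made mainly of potassium, sodium, calcium and chloride channels, had 127 rows, 18 of them silent with vehicle, and none was a member. Squamous and skin epithelium had 11 silent rows, cytokines and chemokines 8, and testis and cancer-testis genes 7, again with no member. Over all coding genes silent with vehicle 13.4% were members. Lists with so few silent rows can hold none at that share, so their lack of members is not a result about these classes. The genes tied above to testis and to barrier epithelia are thus not in these lists. Nor are the channel genes RYR1 and TMC2 in the list of ion channels. Among solute carriers 25 rows were silent with vehicle and 2 were members, SLC26A7 and SLC9A7. Among zinc finger proteins 12 were silent and 2 were members, ZNF215 and ZNF843. The list of GTPase-linked receptors had 19 silent rows and 4 members, ADGRE1, S1PR5, ADGRE5 and HRH1. The receptor genes KISS1R and GPR4 are in the set but not in that list. Placenta and ovary had 6 silent rows and 3 members, CGA, INHBA and INHBB.

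Genes of the same lists that were no members were compared across the arms with edgeR's quasi-likelihood test over all 16084 genes kept, with calls made up to an adjusted p (Benjamini-Hochberg) of 0.05. Over all genes kept 33.7% were higher with panobinostat and 31.5% were lower. Among coding genes that are no members the shares were 33.0% and 35.9%. In drug and steroid metabolism, 19 of 27 such genes were higher and 3 lower, with a median log2 fold change of 0.56, against -0.04 over all tested coding genes that are no members. In blood and immune, 13 of 17 were higher and 2 lower, with a median of 1.03. Ion channels gave 54 higher and 25 lower of 99, with a median of 0.42, and zinc finger proteins gave 79 higher and 176 lower of 451, with a median of -0.13. Some of these genes passed the filter on low counts only through the panobinostat arm and had to differ, so the counts describe the lists and do not weigh them.

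Close relatives of the members, chosen after the members were known, gave a second view of the same functions. Of 65 relatives kept for testing, 39 were higher with panobinostat (60%) and 13 lower (20%), in the same edgeR fit, beside 33.0% and 35.9% over coding genes that are no members. Of these relatives 17 had fewer than 60 vehicle counts, 16 of them higher, and those may have passed the filter on low counts through the panobinostat arm alone, so the count supports nothing. Among the 48 with 60 vehicle counts or more, a limit added after the values were seen, 23 were higher (47.9%) and 12 lower (25%), beside 28.4% and 39.4% over such coding genes. With upper quartile scaling, a setting that shifts the median of all genes by 0.14 on the log2 scale, 45 of the 65 were higher and 11 lower. Relatives thus went both ways, and in several families the member was the minor transcript throughout.

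HES1, the general Notch-driven repressor, averaged 16.3 ± 0.978 FPKM with panobinostat and 1.42 ± 0.398 FPKM with vehicle, a log2 fold change of 3.40 ± 0.15 (estimate ± SE, adjusted p = 1.29e-10, edgeR). HES4 was higher too, by 3.29 ± 0.19. The members HES7 and HES2 held 135 and 84 panobinostat counts in all, and HES2 averaged 0.325 ± 0.0147 FPKM. Among the receptors upstream, NOTCH1 was higher by 2.74 ± 0.18 and NOTCH4 lower, at -1.67 ± 0.18.

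EFNA3, an ephrin gene beside EFNA4, averaged 5.87 ± 0.420 FPKM with panobinostat and 0.158 ± 0.106 FPKM with vehicle. Its log2 fold change was 4.99 ± 0.27, that of EFNA1 was 5.10 ± 0.34, and EFNA5 was lower, at -0.78 ± 0.10. All 7 EPHA receptor genes tested besides EPHA3 were higher under each of the 4 scalings tried, from 0.55 ± 0.08 for EPHA7 to 3.05 ± 0.34 for EPHA10. EFNA1, EFNA3 and EPHA10 had only 6, 16 and 17 vehicle counts, so the same limit of the filter holds for them. EPHA7, at 13.1 ± 1.53 FPKM with panobinostat, was the highest of them, and EPHA3 stood at 0.337 ± 0.0513 FPKM.

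Other families had a member switched on beside more abundant relatives, of which some moved little and others were higher or lower. CCND1 averaged 180 ± 5.15 FPKM with panobinostat and 186 ± 8.73 FPKM with vehicle and did not pass (adjusted p = 0.0699), while CCND2 reached 1.62 ± 0.496 FPKM. The autophagy genes GABARAP and GABARAPL2 did not pass, at 0.05 ± 0.15 and 0.11 ± 0.10, although GABARAPL2 passed with upper quartile scaling, and MAP1LC3B was higher by 1.01 ± 0.14. GADD45A was higher by 0.79 ± 0.09 and GADD45G lower, at -0.70 ± 0.11.

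IGF2BP2 joined a family that otherwise fell. IGF2BP1, an RNA-binding protein of fetal tissue, averaged 11.7 ± 0.641 FPKM with panobinostat and 37.7 ± 1.35 FPKM with vehicle, a log2 fold change of -1.80 ± 0.07. IGF2BP3 was lower as well, at -0.96 ± 0.07, and IGF2BP2 rested on 60 panobinostat counts. In the RAS family RRAS was the member, and HRAS and MRAS were lower, at -0.49 ± 0.13 and -1.26 ± 0.12. NRAS was lower at -0.17 ± 0.07, but did not pass with upper quartile scaling or with library size alone.

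Some working partners and relatives of other members were higher. CAV1, the main protein of caveolae, averaged 5.05 ± 0.591 FPKM with panobinostat and 0.377 ± 0.0723 FPKM with vehicle, and CAV2 was higher by 1.67 ± 0.09. IL6ST and LIFR, which encode receptor chains that pair in cytokine receptors of the OSMR family, were higher by 1.09 ± 0.07 and 1.29 ± 0.08. GBP2, GBP4, GBP7 and GBP1, GTPases related to GBP5, were higher by 3.82 ± 0.28, 2.26 ± 0.45, 2.23 ± 0.54 and 1.14 ± 0.46. They had only 20, 13, 9 and 20 vehicle counts, so they may have passed the filter through the panobinostat arm alone.

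**Figure D4:**
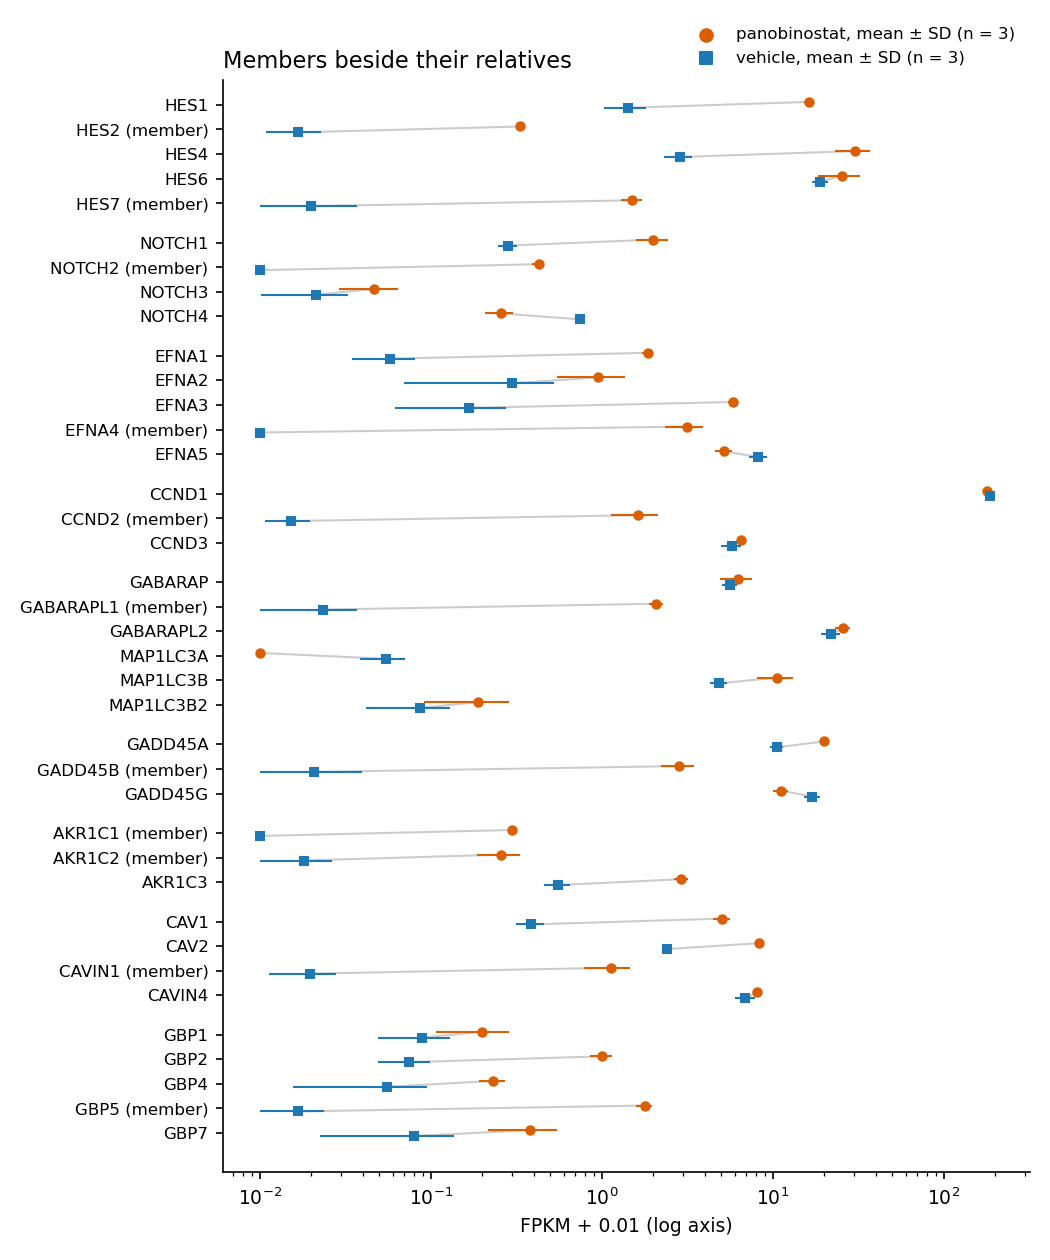
FPKM + 0.01 on a log axis for members and their relatives in 9 gene families, with panobinostat means (orange circles) above vehicle means (blue squares) and bars of ± SD over 3 libraries each. Members start near the left edge with vehicle, and abundant relatives such as CCND1, at 180 FPKM with panobinostat and 186 FPKM with vehicle, lie far to the right in both arms.

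The genes were spread over the genome. They lay on chromosome X and on all autosomes but 14 and 21, with the highest numbers on chromosome 19 (16 genes), chromosome 1 (11), chromosome 17 (10) and chromosome 12 (9). Chromosome 19 held 14.4% of the set, against 9.61% of the 718 genes silent with vehicle that stayed under 60 panobinostat counts and 7.25% of coding rows. For chromosome 17 the shares were 9.01%, 5.01% and 5.91%. Genes are not replicates, so these shares carry no test.

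**Figure D5:**
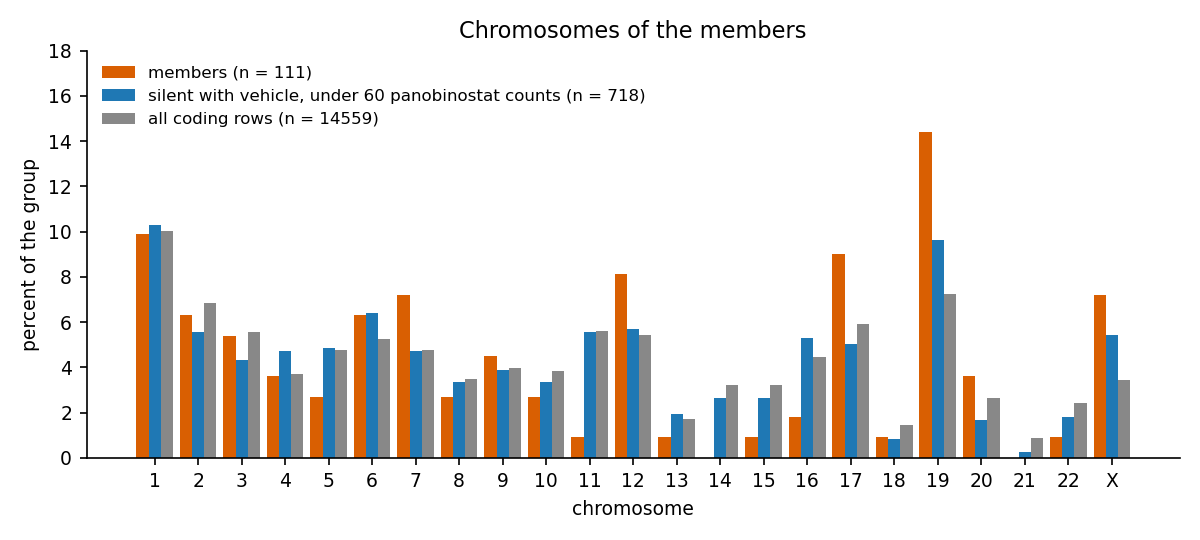
Percent of each group of genes that lies on each chromosome, for the 111 genes (orange), the 718 genes silent with vehicle that stayed under 60 panobinostat counts (blue) and all 14559 coding rows (grey). Chromosome 19 has the tallest orange bar, at 14.4%, against 9.61% and 7.25% for the other groups.

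Few of them sat side by side. Only 4 had another member as the next coding gene, among them AKR1C1 and AKR1C2 on chromosome 10, which lie 4117 bases apart on opposite strands (4963253 to 4983283 and 4987400 to 5018031). Within 100 kb, start to start, 6 had another member, and of the 718 silent genes that stayed under the limit 88 had another such gene within that distance. A larger group has more such pairs per gene by its size alone, so these counts cannot be compared. Within 1 Mb, 26 members formed 12 groups, of which 6 were on chromosome 19. These were KISS1R with GRIN3B, ANGPTL6 with S1PR5, RYR1 with NCCRP1 and ZFP36, GPR4 with FOXA3, EMP3 with SULT2B1, and RRAS with TSKS.

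The genes next door were not picked for their counts, but any that met the rule were stepped over as members. Values of the neighbours are thus free of the rule only in part. Taking the nearest coding gene on each side that was no member gave 217 neighbours, of which 193 were kept for testing. Of these 72 were higher with panobinostat (37.3%) and 57 lower (29.5%), beside 33.0% higher and 35.9% lower over all tested coding genes that are no members. Their median log2 fold change was 0.07. Among the 172 neighbours with 60 vehicle counts or more, which passed the filter without help from the panobinostat arm, 54 were higher (31.4%) and 57 lower (33.1%), beside 28.4% and 39.4% over such coding genes. Within 10 kb, 21 of 55 tested neighbours were higher and 18 lower. These shares lay near the background, so they are not a result about the neighbourhood.

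Some neighbours of the genes with the highest level are named here, picked because they were called. ADAM15, a metalloprotease gene that lies 956 bases from EFNA4 on the same strand, averaged 16.7 ± 1.58 FPKM with panobinostat and 3.04 ± 0.416 FPKM with vehicle, a log2 fold change of 2.35 ± 0.10 (adjusted p = 1.05e-10, edgeR). EFNA3, on the other side of EFNA4, had 532 panobinostat and 16 vehicle counts, and EFNA4 itself is high by the rule. PAK3, a kinase gene beside CAPN6, had 240 panobinostat and 4 vehicle counts. ALOXE3, a skin lipoxygenase gene beside HES7, had 45 panobinostat counts and 0 vehicle counts, and PER1, the circadian gene on the other side, was higher by 1.23 ± 0.18. WNT16, beside CPED1, had 49 panobinostat and 2 vehicle counts. EFNA3, PAK3, ALOXE3 and WNT16 may have passed the filter on low counts through the panobinostat arm alone, so their rise supports nothing.

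Elsewhere neighbours were lower, or those on either side went opposite ways. SCAF1 and PRR12, on the flanks of RRAS, were lower, at -0.83 ± 0.10 and -0.71 ± 0.17. LMNB2, the lamin gene beside GADD45B, averaged 86.4 ± 3.11 FPKM with panobinostat and 125 ± 5.56 FPKM with vehicle, and GNG7 on the other side was higher by 2.56 ± 0.37. NCOA5 and CDH22 flank CD40, and NCOA5 was lower, at -0.78 ± 0.08, while CDH22 was higher by 1.57 ± 0.30. Beside NMU, CLOCK was lower, at -0.67 ± 0.10, and EXOC1 higher by 0.39 ± 0.07. GNG7 and CDH22 had only 13 and 44 vehicle counts, so the same limit of the filter holds for them.

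Most of the genes overlapped no other row of the count table, and genes without a row were not searched. Of the 111 genes, 23 overlapped another row, 18 of them on the opposite strand, which the authors' counting kept apart by strand. On the same strand GPR4 overlapped OPA3, which had 1194 panobinostat and 1455 vehicle counts, and CCDC141 overlapped TTN, with 143 panobinostat and 32 vehicle counts. MYBPC1 overlapped the antisense gene AC117505.1, which itself had 30, 66 and 65 counts in panobinostat libraries A, B and C, against 0 in each vehicle library.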

How the data were processed

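RNA was sequenced in 6 libraries labelled HT1197. The authors obtained the deposited counts per gene from featureCounts 1.5.0-p3 on Ensembl release 84 genes, with strand option 2, per the file headers; version 1.5.1, Novoalign 2.8, Subread and hg38 are named per the submitters' processing notes. The command lists 9 alignment files, and those without a column among the 6 used were not analysed here. The deposited FPKM values are the authors' own and are, within a gene, proportional to the counts over the library total.

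Biotypes and GRCh38 coordinates came from GENCODE 29, another release than the one used for counting, which held 22459 of the 22718 identifiers. A gene is a member if it is protein-coding, with 3 vehicle counts or fewer and 60 panobinostat counts or more. The members, lists, classes and families were chosen with earlier results of these data known, and some members and relatives are not reported here. Genes named follow a rule (the 20 highest by FPKM, the 10 with the most counts, up to 4 per list, adjacent genes, genes next to the limits, and called neighbours of the first 20), with others, and all relatives, chosen after their values were seen.

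The background fit was edgeR 4.0.16 (filterByExpr with a minimum count of 10 and total of 15, TMM, quasi-likelihood test, Benjamini-Hochberg adjusted p of 0.05, R 4.3.3). Each SE was taken as the log2 fold change over the root of F. Ratios over arms use TMM-scaled totals, and a gene with 0 vehicle counts is given a floor of 3 counts in that arm. Intervals are exact (95%) and cover counting error only. The edgeR steps were tested on simulated counts. Alternatives were other limits, scalings, filters, DESeq2 1.42.0 and each library left out.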

Additional observations from a re-analysis of the deposited data

Results flagged for a closer look

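Outside the coding genes, 45 rows of other biotypes met the same limits of 3 vehicle and 60 panobinostat counts, a signal in rows that the comparison of coding genes does not use and above the level in the vehicle libraries by construction. Of these 24 were lincRNA and 6 antisense genes. LINC02506 had 113, 125 and 147 counts in panobinostat libraries A, B and C, against 0, 1 and 1 in vehicle libraries, and its mean FPKM stood above that of every coding member. LINC01405 had 109, 134 and 139 counts in panobinostat libraries, against 0, 0 and 2 in vehicle libraries. Of the 45 rows, only AC117505.1, which overlapped MYBPC1, lay within 100 kb of a coding member.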

How the results depend on the processing

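The number of genes follows the limits: 30 with no vehicle count allowed, 247 with 10 allowed, 245 at 30 panobinostat counts or more and 31 at 120. Scaled by TMM library size there were 90, all among the 111, and scaled to the mean library total 112, of which 107 were. Leaving out a library, with that arm's limit scaled, gave 108 to 128 genes, of which 99 to 105 were shared. Without a biotype limit there were 156. Neighbours higher with panobinostat numbered 36 on the other strand only (of 100 tested), 54 within 100 kb, 64 to 94 under the other settings, and 68 to 73 with a library left out. Over all genes 5416 were higher, 4583 to 6570 under the alternatives and 5026 to 5575 with a library left out. Upper quartile scaling moved the share of higher among changed genes to 63.2% and library size alone to 61.0%, beside 51.7%. Members with another member beside them numbered 4, and 26 within 1 Mb. Of the 20 highest by FPKM, 13 were among the 20 highest by TMM-scaled CPM.

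With a replicate block for the library letter, 72 neighbours and 5432 of all genes were higher. Same-letter libraries correlated at 0.081, -0.021 and 0.104 in their deviations from the arm means, so the letters were not taken to pair them. The promoter comparison is not reported, since too few members had a window, and its alternatives were not run. Depth limits precision: panobinostat libraries spread by a median of 20.9%, so the order of members at close levels is uncertain.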
